A study of Mus musculus with 8 samples.

Results

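The kidney is where vitamin D is switched on and off and where phosphate is reclaimed from the urine. The subject here is a set of 10 genes of that system, chosen by name: the vitamin D enzymes Cyp27b1 and Cyp24a1, the vitamin D receptor Vdr, the co-receptor Kl (Klotho), the receptors Fgfr1 and Pth1r, the sodium-phosphate cotransporters Slc34a1, Slc34a2 and Slc34a3, and the scaffold protein gene Slc9a3r1. All 10 of 10 were measured, among 22180 genes on the array, each by 1 probe set that names no other gene. Kidneys of 8 mice aged 2 months were used, 1 array per mouse: 3 Col4a3-/-OPN-/- mice (double mutants), 3 Col4a3-/- mice (single mutants) and 2 wild type mice. Every mutant lacks Col4a3, a collagen chain of the glomerular filter whose absence is used to model Alport syndrome, and the double mutants also lack osteopontin (OPN), a secreted matrix protein and cytokine. The labels name no treatment, strain, sex or litter, and none limits either deletion to a cell type.

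In this system FGF23, a hormone of bone, binds a pair formed by Klotho and a receptor such as Fgfr1, and parathyroid hormone binds Pth1r. Both hormones lower the amount of phosphate carriers at the brush border of the proximal tubule. Parathyroid hormone raises Cyp27b1, which makes the active hormone calcitriol, whereas FGF23 lowers Cyp27b1 and raises Cyp24a1, which breaks calcitriol down. Calcitriol acts through Vdr, induces Cyp24a1 and represses Cyp27b1. In chronic kidney disease loss of Klotho is well known.

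All values are log2 expression as deposited by the authors, where a difference of 1 is a doubling, and precision is limited by there being 8 arrays. The array medians lay between 5.18 and 5.25. Sex was read from the arrays, by Xist against the Y-linked Uty, Kdm5d and Eif2s3y. Double mutants 1 and 2 and single mutants 1 and 3 were read as female, and double mutant 3, single mutant 2 and both wild type mice as male. Sex and genotype are thus unbalanced, so each comparison comes from the model of the 3 groups and from a second model that adds sex. The 2 male mutants stood apart from their groups: single mutant 2 had correlations of 0.865 and 0.839 to single mutants 1 and 3, while that pair reached 0.959, and double mutant 3 had 0.895 and 0.908 to double mutants 1 and 2, while that pair reached 0.965. With no wild type female, the sex term is estimated within the mutants and carried over to the male wild type. It rests on these 2 males against 4 females, so a sex effect and whatever else sets these 2 mice apart cannot be told apart. With either male left out, the other alone sets the sex term. Without single mutant 2 the double mutant value of the sex-term fit is then double mutant 3 minus wild type. Without double mutant 3 the single mutant value is single mutant 2 minus wild type. The value of the other mutant group borrows that 1 male's distance from its females. Kidney markers were present: the mean of 16 proximal tubule markers lay between 9.34 and 10.87 on the 8 arrays, while that of 7 adrenal markers lay between 4.65 and 4.78, near the lowest values of the arrays. Pth, the parathyroid hormone gene, and Fgf23, the bone hormone gene, measured at most 4.40 and 4.70 on any array, also near the lowest values. The targeted gene Col4a3 had a mean of 6.85 ± 0.74 (SD, n = 3) in double and 7.31 ± 0.61 (SD, n = 3) in single mutants, against 8.60 ± 0.25 (SD, n = 2) in wild type, and neither difference passed the test (adjusted p = 0.0998 and 0.162 in limma). The labels do not say which exons were deleted or where its probe set lies.

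The sequences before the start sites are shown for Cyp27b1, whose pattern lay apart from the other members, and for Kl, Vdr and Slc34a1, which lay below wild type in every mutant. Each is the stretch of 250 bases just before a RefSeq transcript start on mouse build GRCm38.p6, written in the direction of the gene; for Slc34a1 that start lies inside the gene's outer bounds. Capitals mark matches, on either strand, to TATAAA (the TATA box), to CCAAT (the CCAAT box), to GGGCGG (the GC box), to AGGTCA (a nuclear receptor motif), to TGACG (a cAMP response motif) or to GTTAAT (an HNF1 motif), and none of the matches shown overlaps another. The region of Cyp27b1 is chr10:127047996-127048245 (plus strand), that of Kl chr5:150952357-150952606 (plus strand), that of Vdr chr15:97908297-97908546 (minus strand) and that of Slc34a1 chr13:55399398-55399647 (plus strand).
Cyp27b1: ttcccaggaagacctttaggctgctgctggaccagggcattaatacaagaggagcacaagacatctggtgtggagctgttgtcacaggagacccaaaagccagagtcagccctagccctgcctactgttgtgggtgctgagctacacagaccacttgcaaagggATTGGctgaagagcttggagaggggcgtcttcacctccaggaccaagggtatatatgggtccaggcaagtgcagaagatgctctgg
Kl: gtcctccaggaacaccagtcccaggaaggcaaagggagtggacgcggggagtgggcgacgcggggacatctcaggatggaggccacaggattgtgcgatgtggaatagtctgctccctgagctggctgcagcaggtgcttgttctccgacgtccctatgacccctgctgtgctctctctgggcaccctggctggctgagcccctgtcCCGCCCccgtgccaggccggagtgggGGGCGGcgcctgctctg
Vdr: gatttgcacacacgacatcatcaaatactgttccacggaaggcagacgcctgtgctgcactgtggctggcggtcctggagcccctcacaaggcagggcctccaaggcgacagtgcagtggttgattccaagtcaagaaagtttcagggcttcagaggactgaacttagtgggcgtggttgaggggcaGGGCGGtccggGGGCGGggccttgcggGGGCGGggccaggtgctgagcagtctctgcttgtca
Slc34a1: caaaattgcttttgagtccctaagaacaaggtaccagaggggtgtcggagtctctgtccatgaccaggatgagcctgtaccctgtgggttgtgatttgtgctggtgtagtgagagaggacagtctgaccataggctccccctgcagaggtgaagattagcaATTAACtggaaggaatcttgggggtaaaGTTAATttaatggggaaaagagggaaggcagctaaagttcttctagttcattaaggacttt

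Cyp27b1 held 1 CCAAT box, the motif of the factor NF-Y, on the minus strand from base -86 to -82 counted from the start, and none of the other motifs. CCAAT is found in 33.8% of the 32851 promoter entries of the table over the same length. Vdr held 3 and Kl 2 matches to GGGCGG, the GC box bound by Sp1, which 32.7% of entries hold. Slc34a1 held neither, but 2 matches to GTTAAT, part of the motif of the kidney and liver factor HNF1, which 6.43% of entries hold. In G and C content the region of Kl lay at 66.8%, that of Vdr at 61.2%, that of Cyp27b1 at 54.4% and that of Slc34a1 at 46.4%, against a median of 52.4% over all entries. Of the 10 members 8 were in the table. Among them only the promoter of Slc34a3 matched AGGTCA, with 2 matches, and 14% of all entries hold one. Slc34a2 held none of the 6 motifs.

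Of the vitamin D enzymes, Cyp27b1 was highest in the double mutants and Cyp24a1 was low in some mutants of each genotype, and neither passed the test. Cyp27b1 (chromosome 10, 127048246 to 127054884, GRCm38) measured 7.38, 8.76 and 7.41 in double mutants 1, 2 and 3. It measured 6.38, 7.08 and 6.10 in single mutants 1, 2 and 3, and 6.86 and 6.46 in wild type mice 1 and 2. Every double mutant thus lay above every single mutant and wild type mouse, with double mutant 2 far above the rest, while single mutants and wild type overlapped. The double mutant mean was 7.85 ± 0.79 (SD, n = 3), against 6.52 ± 0.51 (SD, n = 3) in single mutants and 6.66 ± 0.28 (SD, n = 2) in wild type. The double mutant exceeded the single mutant by 1.33 (SE 0.41), 2.52-fold, and did not pass the test over all genes (adjusted p = 1 in limma, and 0.993 after adding sex). By p it ranked 8 of 7145 genes tested. It was the 1 member of 9 tested with an unadjusted p under 0.05 in this comparison, which 1.46% of all tested genes had, and the 1 member whose double and single mutants did not overlap, which 2.02% of genes did in this direction. Cyp27b1 entered the test through the double mutants, and its mean in single mutants lay below the filter on mean level. For Cyp27b1 the filter thus favoured double mutants above single mutants in this rank, count and lack of overlap. Without the filter its unadjusted p in this comparison was 0.0196 in limma, against 0.0113 with it. Without double mutant 2 the difference between the mutants was 0.88. Against wild type the double mutant was higher by 1.19 (SE 0.45, adjusted p = 0.189), and by 1.25 (SE 0.54, adjusted p = 0.122) when sex was in the model, which was 0.75 when single mutant 2 was left out and 2.26 when double mutant 3 was. The single mutant stood at -0.14 relative to wild type (SE 0.45, adjusted p = 0.864).

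Cyp24a1 (chromosome 2, 170482957 to 170497145), which inactivates calcitriol, had the widest spread of the members. It measured 9.67, 7.65 and 8.20 in double mutants 1, 2 and 3. It measured 9.46, 6.86 and 9.88 in single mutants 1, 2 and 3, and 10.13 and 9.74 in wild type. Single mutant 2 and double mutants 2 and 3 were low, and the remaining 3 mutants, all female, lay between 9.46 and 9.88, against 9.74 and 10.13 in wild type. The SD was 1.04 in double mutants and 1.64 in single mutants (n = 3 each), against 0.27 (n = 2) in wild type. The double mutant stood at -1.43 relative to wild type (SE 0.90, adjusted p = 0.385) and the single mutant at -1.20 (SE 0.90, adjusted p = 0.428). Once sex was added, the differences were -2.52 (SE 0.80, adjusted p = 0.0545) and -2.29 (SE 0.80, adjusted p = 0.0673), 5.73-fold and 4.89-fold lower, and neither passed. Without single mutant 2 the single mutant stood at -0.26, or -0.72 with the sex term. The double mutant value in that sex-term fit, -1.73, is double mutant 3 alone minus wild type. Without double mutant 3 the sex-term value of the single mutant was -3.07, which is single mutant 2 alone minus wild type. That of the double mutant was -4.08, with the sex offset of that 1 male. Double mutant 2, which had the highest Cyp27b1, had the lowest Cyp24a1 of its group, and so had single mutant 2 in its own.

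Vdr, the receptor of calcitriol, lay below wild type in all 6 mutants, with a small spread in the double mutants. Vdr (chromosome 15, 97854427 to 97908296) measured 9.68, 9.65 and 9.54 in double mutants, 9.38, 9.29 and 10.01 in single mutants 1, 2 and 3, and 10.27 and 10.15 in wild type. Each mutant lay below each wild type mouse, and single mutant 3 came closest. The double mutant stood at -0.59 relative to wild type (SE 0.21, adjusted p = 0.176) and the single mutant at -0.65 (SE 0.21, adjusted p = 0.145). In the model with sex, both passed, at -0.76 (SE 0.22, adjusted p = 0.0451) and -0.82 (SE 0.22, adjusted p = 0.0329). Neither call held in the sex-term fit without single mutant 2, at -0.67 in double and -0.64 in single mutants. The double mutant value there is double mutant 3 alone minus wild type.

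**Figure D1:**
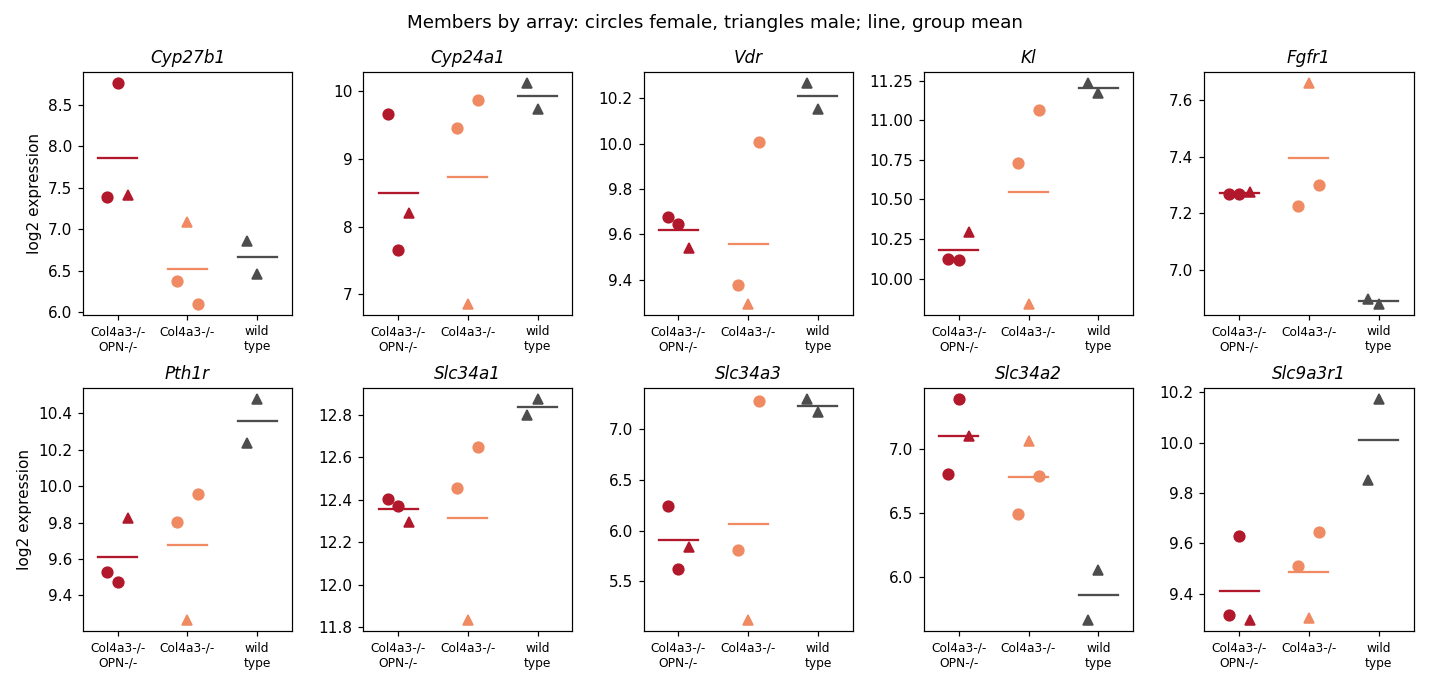
Log2 expression of the 10 members on each of the 8 arrays, in a panel per gene with its own axis. Circles are females, triangles are males and the line is the group mean. Kl, Slc34a1, Vdr, Pth1r and Slc9a3r1 lie below wild type in all 6 mutants, Fgfr1 and Slc34a2 above it, and Cyp27b1 lies above the other groups in the 3 double mutants.

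Among the hormone receptors, Kl and Pth1r lay below and Fgfr1 above wild type in all 6 mutants. Kl (chromosome 5, 150952607 to 150993817), which makes the receptor for FGF23 specific, measured 10.12, 10.12 and 10.29 in double mutants. It measured 10.73, 9.84 and 11.06 in single mutants 1, 2 and 3, and 11.24 and 11.17 in wild type. The double mutants were low and close together (SD 0.10, n = 3), whereas the single mutants were spread (SD 0.63, n = 3), with the lowest and the highest mutant value in that group, and no mutant reached wild type. The double mutant stood at -1.03 relative to wild type (SE 0.31, adjusted p = 0.128), 2.04-fold lower, and the single mutant at -0.66 (SE 0.31, adjusted p = 0.246). Once sex was added, the double mutant passed at -1.32 (SE 0.32, adjusted p = 0.0249), and the single mutant did not at -0.95 (SE 0.32, adjusted p = 0.0599). The mutants differed from each other by -0.37 (SE 0.28), which did not pass. Without single mutant 2 the single mutant stood at -0.31, or at -0.14 with the sex term. Without that array the double mutant passed at -1.03 with no sex term (adjusted p = 0.0102), as did 8.26% of all genes. With the sex term the double mutant value was -0.91, which is double mutant 3 alone minus wild type. Without double mutant 3 the sex-term value of the single mutant was -1.36, which is single mutant 2 alone minus wild type. That of the double mutant was -2.14, with the sex offset of that 1 male.

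Pth1r (chromosome 9, 110722085 to 110747145), the receptor of parathyroid hormone, measured 9.53, 9.48 and 9.83 in double mutants, 9.81, 9.27 and 9.96 in single mutants and 10.24 and 10.48 in wild type. All 6 mutants lay below both wild type mice, and the mutant groups overlapped. The double mutant stood at -0.75 relative to wild type (SE 0.22, adjusted p = 0.124) and the single mutant at -0.68 (SE 0.22, adjusted p = 0.145), and neither passed with the sex term, at -0.84 and -0.78 (adjusted p = 0.0501 and 0.0594). When single mutant 2 was left out, the sex-term values were -0.53 in the double and -0.15 in the single mutant. With double mutant 3 left out they were -1.47 and -1.09. Of these, -0.53 is double mutant 3 alone, and -1.09 single mutant 2 alone, minus wild type. Fgfr1 (chromosome 8, 25518759 to 25575718), a receptor kinase that Klotho joins and that fibroblasts express as well, measured 7.27, 7.27 and 7.28 in double mutants, 7.23, 7.66 and 7.30 in single mutants and 6.90 and 6.88 in wild type. Its groups of double mutants and wild type were each very tight, and single mutant 2 was the highest. Once sex was added, Fgfr1 was higher by 0.52 (SE 0.15, adjusted p = 0.0459) in double and by 0.64 (SE 0.15, adjusted p = 0.0229) in single mutants. Without the sex term the differences were 0.38 (adjusted p = 0.204) and 0.51 (adjusted p = 0.132). In the sex-term fit without single mutant 2 they were 0.39 and 0.38 and neither passed, and without double mutant 3 they were 0.78 and 0.77. Of these, 0.39 is double mutant 3 alone, and 0.77 single mutant 2 alone, minus wild type.

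Of the phosphate carriers, Slc34a1 lay below and Slc34a2 above wild type in all 6 mutants. Slc34a1 (chromosome 13, 55399622 to 55414695), the main phosphate carrier of the proximal tubule, measured 12.41, 12.37 and 12.30 in double mutants, 12.46, 11.83 and 12.65 in single mutants and 12.80 and 12.87 in wild type. Single mutant 2 was again the lowest, and no mutant reached wild type. The double mutant stood at -0.48 relative to wild type (SE 0.23, adjusted p = 0.259) and the single mutant at -0.52 (SE 0.23, adjusted p = 0.214). In the model with sex, both passed, at -0.75 (SE 0.20, adjusted p = 0.0320) and -0.79 (SE 0.20, adjusted p = 0.0254). Without single mutant 2 neither passed, at -0.54 in double and -0.38 in single mutants, and without double mutant 3 the values were -1.17 and -1.004. Of these, -0.54 is double mutant 3 alone, and -1.004 single mutant 2 alone, minus wild type.

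Slc34a3 (chromosome 2, 25228897 to 25234270), the other renal phosphate carrier of this family, measured 6.24, 5.63 and 5.84 in double mutants, 5.81, 5.12 and 7.28 in single mutants 1, 2 and 3 and 7.29 and 7.16 in wild type. Single mutant 3 was at the wild type level, and all double mutants were below it. Its mean was below the filter of 6.64, so it was not among the 7145 genes tested. In a fit of all 22180 genes, where 0.0451% and 0.0316% passed in the double and the single mutant (6.25% and 6.91% after adding sex), the double mutant stood at -1.32 relative to wild type (adjusted p = 0.370) and the single mutant at -1.16 (adjusted p = 0.414), and neither passed with the sex term (adjusted p = 0.141 and 0.168).

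Slc34a2 (chromosome 5, 53049353 to 53071664), the phosphate carrier of gut and lung, measured 6.80, 7.39 and 7.10 in double mutants, 6.49, 7.06 and 6.79 in single mutants and 5.66 and 6.05 in wild type. Every mutant lay above both wild type mice. The double mutant differed by 1.24 (SE 0.24, adjusted p = 0.0688), 2.36-fold higher, and the single mutant by 0.92 (SE 0.24, adjusted p = 0.115). Once sex was added, both passed, at 1.38 (SE 0.26, adjusted p = 0.0141) and 1.07 (SE 0.26, adjusted p = 0.0251). Its wild type mean of 5.86 ± 0.28 (SD, n = 2) was below the filter, so Slc34a2 was tested only because the mutants were high. In the sex-term fit of all genes, which needs no filter, the double mutant passed (adjusted p = 0.0460) and the single mutant did not (adjusted p = 0.0746).

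Slc9a3r1 (chromosome 11, 115163341 to 115181178) encodes the scaffold NHERF1, which holds Slc34a1 at the brush border. It measured 9.32, 9.63 and 9.30 in double mutants, 9.51, 9.30 and 9.65 in single mutants and 9.85 and 10.17 in wild type. The mutant groups covered the same range, and both lay below wild type. Once sex was added, it was lower by -0.75 (SE 0.18, adjusted p = 0.0252) in double and by -0.67 (SE 0.18, adjusted p = 0.0313) in single mutants. Without it the differences were -0.60 (adjusted p = 0.119) and -0.52 (adjusted p = 0.149).

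**Figure D2:**
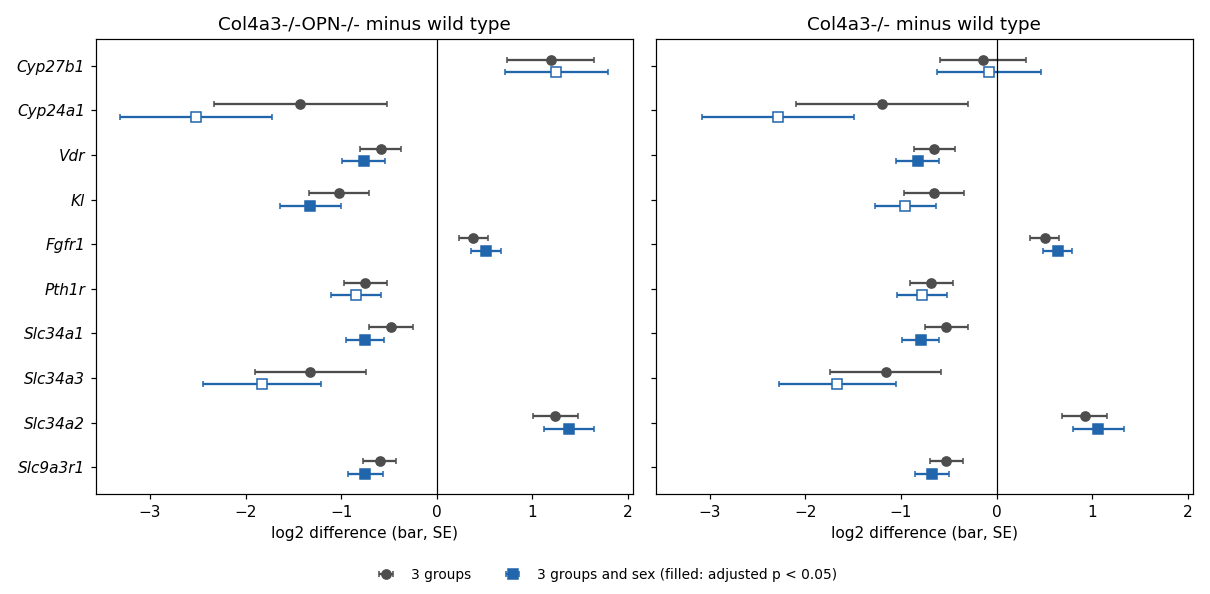
Log2 differences of the 10 members, double mutant minus wild type on the left and single mutant minus wild type on the right, with bars for the SE. Circles are from the fit of 3 groups, in which no member passed, and squares from the fit with a term for sex, filled where the adjusted p was under 0.05. Slc34a3 was below the filter and its bars are from the fit of all genes. Kl is filled on the left and not on the right.

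Counted over the members, 0 of 9 tested passed without the sex term in any comparison. The background was 0.084% of all tested genes for the double mutant against wild type, 0.028% for the single mutant against wild type and 0% for the double against the single mutant. An unadjusted p under 0.05 was reached by 7 of 9 members in the double mutant against wild type, where 21.6% of genes had one, and by 6 of 9 in the single mutant, where 23.2% had one. In the model with sex, 4 members were lower and 2 higher in the double mutant, where 17.8% of all genes were called lower and 6.4% higher (24.2% in all). In the single mutant 3 were lower and 2 higher, where 19.9% and 7.31% were (27.2% in all). Both counts include Slc34a2, which entered the test through the mutants. The 7 of 9 with an unadjusted p under 0.05 also include Cyp27b1, which entered through the double mutants. In the sex-term fit of all 22180 genes only Slc34a2 in the double mutant and only Fgfr1 in the single mutant (adjusted p = 0.0377) passed. The other calls missed the threshold there, in the double mutant with adjusted p = 0.0785 for Kl, 0.103 for Vdr, 0.0704 for Slc34a1, 0.0533 for Slc9a3r1 and 0.0583 for Fgfr1. In the single mutant these were 0.0835 for Vdr, 0.0599 for Slc34a1, 0.0638 for Slc9a3r1 and 0.0746 for Slc34a2. The calls also depended on single arrays. Without wild type 1 there was 1 call in each mutant, where 12.2% of genes passed in the double and 16.2% in the single mutant, and without wild type 2 no member passed in either, where 0.98% and 0.924% of genes did. Without single mutant 2 no member passed in the single mutant, where 0% of genes did. In that fit the double mutant values are double mutant 3 alone minus wild type, so its calls there are those of 1 mouse. Without double mutant 3, Vdr and Slc9a3r1 missed the threshold in the double mutant, where single mutant 2 alone set the sex term. Both mutants were compared with the same 2 wild type mice.

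The median difference of the 9 tested members was -0.59 in the double mutant and -0.52 in the single mutant against wild type, while the median of all tested genes was -0.08 and -0.07. With the sex term it was -0.75 and -0.78, while all genes had a median of -0.15 in both. Relative to that shift, the called members stood in the double mutant at -1.17 for Kl, -0.61 for Vdr, -0.60 for Slc34a1 and for Slc9a3r1, 0.67 for Fgfr1 and 1.53 for Slc34a2. In the single mutant they stood at -0.68 for Vdr, -0.65 for Slc34a1, -0.53 for Slc9a3r1, 0.79 for Fgfr1 and 1.21 for Slc34a2. With cyclic loess in place of the deposited scale, which brings the shift to -0.04 in both, the sex-term fit called Kl, Slc9a3r1, Fgfr1 and Slc34a2 in the double mutant, with 21.8% of all genes, and Fgfr1 and Slc34a2 in the single mutant, with 25.8%. Of the 9 tested members, groups did not overlap for 6 lower and 3 higher members in the double mutant against wild type, which 28.8% and 17.4% of genes did. In the single mutant they did not for 5 lower and 2 higher members, which 29.1% and 19.3% of genes did. The higher members include Slc34a2 in both mutants and Cyp27b1 in the double mutant, which entered the test through the mutants.

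For 6 of 10 members the double mutant was below the single mutant in females and above it in males, and no difference between the sexes passed the test. Fgfr1 ran the other way, at 0.0046 in females and -0.38 in males. The share of all genes with such opposite directions was not counted, so the 6 of 10 cannot be read as particular to the members. In females the double mutant was below the single mutant by -0.78 in Kl, -0.38 in Pth1r and -0.16 in Slc34a1. In males, with 1 mouse per mutant, it was above by 0.45 in Kl, 0.56 in Pth1r and 0.46 in Slc34a1. In each of these genes both female double mutants lay below both female single mutants. For Kl the difference between the sexes was -1.23 (SE 0.25, adjusted p = 0.107), the smallest adjusted p of the members, and 0 of 9 passed, as did 0% of all genes in this test. An unadjusted p under 0.05 was reached by 3 of 9 members, against 12.8% of genes. Cyp27b1 was higher in the double mutant in both sexes, by 1.84 in females and 0.33 in males. The effect of sex itself, female minus male, did not pass for any of 9 members, the smallest adjusted p being 0.136, while 10.2% of genes passed; 2 of 9 had an unadjusted p under 0.05, against 29.9% of genes. It was 1.64 (SE 0.64) for Cyp24a1, 0.41 (SE 0.16) for Slc34a1 and 0.44 (SE 0.25) for Kl.

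**Figure D3:**
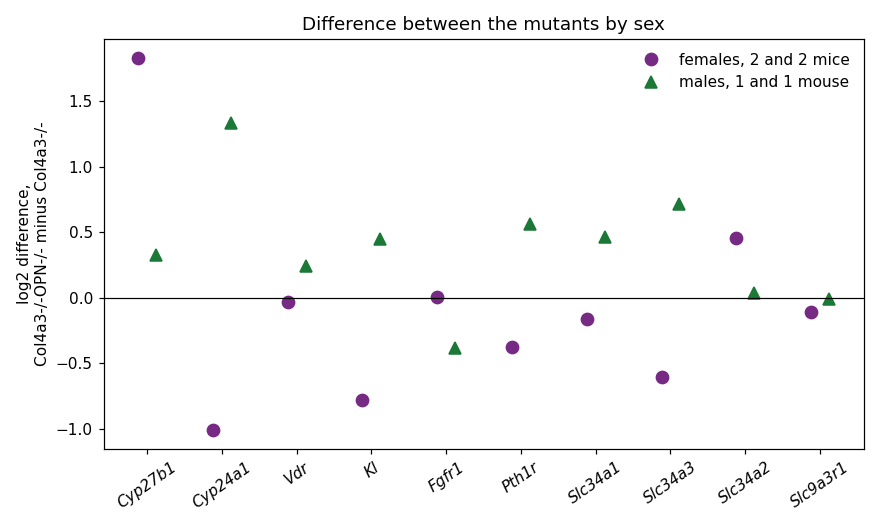
Log2 difference of each member, double minus single mutant, in females (circles, means of 2 and 2 mice) and in males (triangles, 1 and 1 mouse). Kl, Cyp24a1, Slc34a3, Pth1r, Slc34a1 and Vdr lie below 0 in females and above 0 in males, while Cyp27b1 lies above 0 in both.

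Wild type and mutant males can be set side by side without a sex term, with 1 mouse per mutant, so genotype and mouse cannot be told apart. Against the 2 wild type males, Kl was lower by -0.91 in the double mutant male and by -1.36 in the single mutant male. Cyp24a1 was lower by -1.73 in the double and by -3.07 in the single mutant male. Slc34a2 was higher by 1.25 and 1.21, and Cyp27b1 by 0.75 and 0.42, in the double and the single mutant male.

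The mean level of proximal tubule markers was lower, and that of macrophage and injury markers higher, in all mutants than in wild type. In whole kidneys fewer cells of a type and less RNA per cell cannot be told apart. Proximal tubule markers, of the cells that hold Slc34a1, Slc34a3, Pth1r and Cyp27b1, were below wild type for 15 of 15 tested in both mutants. Their median difference was -0.63 in double and -0.82 in single mutants, and none passed. With the sex term the medians were -1.29 and -1.28, and 9 of 15 were lower in the double and 8 in the single mutant, beside members' medians of -0.75 and -0.78. Their mean level ranged from 9.71 to 10.06 in double mutants and from 9.34 to 10.31 in single mutants, against 10.87 in both wild type mice. The lowest array was single mutant 2, as for Slc34a1, Slc34a3, Pth1r, Kl and Cyp24a1. Within the list, Slc7a13 measured 4.78 to 5.30 in the 4 female mutants, against 9.18 and 9.62 in the mutant males. It measured 11.05 and 11.20 in the male wild type mice. The gap between the list mean of the females and wild type thus rests in part on this 1 gene. Markers of the distal convoluted tubule, which carries much of the Klotho of the kidney, ranged from 7.66 to 8.37 in double mutants and from 8.02 to 8.48 in single mutants, against 8.29 to 8.40 in wild type. Their part in the members' differences was not tested.

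Macrophages can express Cyp27b1 and Vdr. Of 12 macrophage markers measured 9 were tested. All 9 were above wild type in both mutants and above the single in the double mutant. The medians were 1.78 in double and 1.29 in single mutants, and 0.51 between the mutants. Of all 7145 tested genes, 2916 were above wild type in double and 3061 in single mutants. Between the mutants 3601 were higher in the double mutant. Lyz2, Cd68, C1qa, Cd14, Mrc1 and Cx3cr1 had wild type means below the filter, from 5.63 to 6.56. They were tested only because the mutants were high, so for them the filter favoured values above wild type. The mean level of all 12 measured markers needs no filter. It ranged from 7.81 to 8.12 in double mutants and from 7.03 to 8.47 in single mutants, against 6.19 to 6.32 in wild type. Tubule injury markers ranged from 7.69 to 8.90 in double mutants and from 7.25 to 8.63 in single mutants, against 6.26 to 6.53 in wild type. Fibroblast and matrix markers, of cells that express Fgfr1, ranged from 9.001 to 9.44 and from 8.32 to 9.75 in double and single mutants, against 7.31 to 7.39 in wild type. Markers of T and B cells ranged from 5.09 to 5.88 in double mutants, from 4.99 to 5.22 in single mutants and from 4.92 to 4.99 in wild type. Fat cell markers ranged from 5.998 to 6.61 in double mutants and from 6.09 to 6.25 in single mutants, against 5.72 to 5.86 in wild type. Among them Fabp4 measured 8.42 to 9.53 and raised this mean, while Adipoq measured at most 5.75. The 3 measured parathyroid and thyroid markers ranged from 6.62 to 6.98 in double mutants and from 6.504 to 6.91 in single mutants, against 6.535 to 6.78 in wild type. Their mean was set by Pax8, at 8.84 to 9.69, while Tg measured at most 5.29 and Tshr at most 6.13. The parathyroid marker Gcm2 was not measured. The part of these marker lists in the results was not tested.

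**Figure D4:**
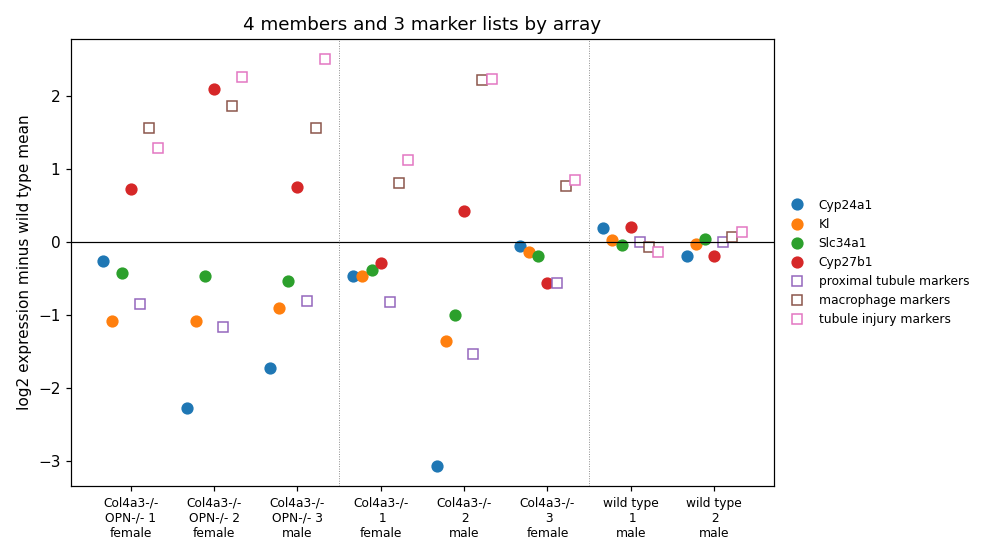
Level of 4 members (filled circles) and of 3 marker lists (open squares, mean of the measured markers) on each array, as log2 expression minus the mean of the 2 wild type mice. Cyp24a1, Kl, Slc34a1 and the proximal tubule markers are lowest in single mutant 2 (male), and Cyp27b1 is highest in double mutant 2 (female).

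The wider pathway was read from 4 lists of other genes. In the list of vitamin D supply and partners 11 of 14 genes were tested. No gene of the 4 lists passed in the 3-group model, and none passed between the mutants in either model. After adding sex, 1 of the 11 was lower in the double and 2 in the single mutant, against 17.8% and 19.9% of all genes, with a median of -0.24 and -0.27. These were Amn, which anchors cubilin in the membrane, at -1.09 in double (adjusted p = 0.0125) and -1.07 in single mutants (adjusted p = 0.0112), and Cubn, the cubilin that takes up vitamin D bound to its carrier, at -1.27 in single mutants (adjusted p = 0.0383), which had -1.12 in double mutants (adjusted p = 0.0588). Amn measured 6.98, 7.10 and 7.06 in double and 7.06, 6.76 and 7.37 in single mutants, against 7.91 and 8.08 in wild type, so that no mutant reached wild type in either sex. Cubn was higher in females by 1.29 (adjusted p = 0.0357) and lowest, at 9.17, in single mutant 2. Single mutants 1 and 3, both female, measured 11.13 and 11.28, above the 11.02 and 10.85 of wild type. In single mutants only the male thus lay below wild type in Cubn.

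In the list of FGF23, parathyroid hormone and other phosphate hormones 5 of 19 genes were tested, and 1 was lower in each mutant with the sex term, against the same 17.8% and 19.9% of all genes. The list's median was -0.20 in double and -0.099 in single mutants. This was Fgfr4, another receptor that Klotho joins. It measured 6.78, 7.05 and 7.04 in double mutants, 7.03, 7.20 and 7.35 in single mutants and 7.84 and 7.95 in wild type. It was lower, opposite in sign to Fgfr1, at -0.90 (adjusted p = 0.0148) in double and -0.66 (adjusted p = 0.0311) in single mutants with the sex term, and had -0.94 (adjusted p = 0.0669) and -0.70 (adjusted p = 0.0911) without it. Female minus male, Fgfr4 differed by -0.063 (adjusted p = 0.800). Klb, the sister of Klotho, was not tested and measured at most 4.74.

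In the list of phosphate carriers and the brush border scaffold 10 of 11 genes were tested, and with the sex term 6 were lower in the double and 4 in the single mutant, against 17.8% and 19.9% of all genes. The list's median was -0.62 in double and -0.61 in single mutants. Xpr1, the phosphate exporter, was lower in both, by -0.54 (adjusted p = 0.0319) in double and -0.50 (adjusted p = 0.0351) in single mutants. Slc17a1, an anion carrier first described as a phosphate carrier, was lower by -1.15 (adjusted p = 0.0214) in double and -1.28 (adjusted p = 0.0152) in single mutants. Slc20a2, a phosphate carrier of another family, was lower in the double mutant by -0.59 (adjusted p = 0.0257), and had -0.36 (adjusted p = 0.0916) in the single mutant. The bicarbonate carrier Slc4a4 was lower by -0.66 (adjusted p = 0.0450) in double and -0.87 (adjusted p = 0.0189) in single mutants. Atp6v0a4, a proton pump subunit, was lower by -0.70 (adjusted p = 0.0205) in double and -0.80 (adjusted p = 0.0136) in single mutants, and was higher in females by 0.92 (adjusted p = 0.00851).

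In the list of distal calcium and magnesium handling 12 of 14 genes were tested, and with the sex term 4 were lower in the double and 3 in the single mutant, against 17.8% and 19.9% of all genes. The list had a median of -0.27 in double and -0.15 in single mutants. Calb1, the calcium-binding calbindin that vitamin D induces, was lower by -1.59 (adjusted p = 0.0158) in double and -1.38 (adjusted p = 0.0207) in single mutants. The calcium sensor Casr was lower by -1.09 (adjusted p = 0.00924) in double and -0.91 (adjusted p = 0.0102) in single mutants. S100g, a smaller calbindin, was lower by -0.90 (adjusted p = 0.0136) in double and -1.001 (adjusted p = 0.0102) in single mutants, and Slc8a1, a sodium-calcium exchanger, by -0.65 (adjusted p = 0.04998) in the double mutant. Calb1, Casr and S100g were each higher in females, by 1.26 (adjusted p = 0.0249), 1.17 (adjusted p = 0.00454) and 1.17 (adjusted p = 0.00472). In the 3-group model Calb1, Casr and S100g stood at -0.74, -0.31 and -0.12 in the double mutant, and they passed in neither mutant. Casr showed this by array, at 8.59, 8.55 and 7.54 in double mutants 1, 2 and 3 and 8.72, 7.53 and 8.96 in single mutants 1, 2 and 3, against 8.55 and 8.52 in wild type: the male of each mutant group lay below wild type and the females did not.

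Likeness of pattern was measured as the root mean square difference of log2 values over the 8 arrays after each gene was centred on its mean. Nearest to Cyp27b1 were Hspb1, a small heat shock protein, at 0.43, Prr15 at 0.48 and S100a11 at 0.49, against a spread of Cyp27b1 itself of 0.78, so that none was close. Nearest to Cyp24a1 were Clec2h at 0.48, Dnase1 at 0.52 and Slc5a12, a lactate carrier of the proximal tubule, at 0.53, against its own spread of 1.13. Nearest to Kl were Dcxr at 0.11, Aldh4a1, a mitochondrial enzyme of proline breakdown, at 0.12 and Tmem116 at 0.15, against a spread of 0.51. Slc34a1, with a spread of 0.31, was matched by Dnaja3 at 0.03, Hax1 at 0.06 and Ndufa10, a subunit of the respiratory chain, at 0.07. Slc34a2, with a spread of 0.54, was matched by the protease gene Ctsc at 0.15, the chemokine gene Cxcl16 at 0.16 and Zfp36l1 at 0.16.

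The remaining members also had near matches among the genes tested. For Vdr these were Faah, Lin52 and Glyctk, each at 0.10. For Pth1r they were Pmpcb and Sel1l3 at 0.09 and Tmem205 at 0.10, for Slc9a3r1 Sec23b at 0.05, Ubac2 at 0.06 and Naxd at 0.08, and for Fgfr1 Actr3, Tcf4 and Phf21a, each at 0.06. Slc34a3 was nearest to Clec2h at 0.24, Dnajc12 at 0.26 and 2610528J11Rik at 0.26. Between members, the closest pair was Slc34a1 and Vdr at 0.16, followed by Slc34a1 and Pth1r at 0.17 and Slc34a1 and Slc9a3r1 at 0.18. With its sign turned, Fgfr1 lay at 0.12 from Slc34a1.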

How the data were processed

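RNA from each kidney was measured on 1 array. The authors deposited log2 values per probe set, the unit being read from the range of 4.20 to 13.43; how they normalized them is not stated in the labels. The values were used as deposited. Of 33793 probe sets 23521 named 1 gene, 1814 several and 8458 none. Each gene was represented by its brightest probe set on average, and genes whose mean exceeded 6.64 (the 75th percentile over probe sets) were tested, which left 7145 genes and 9 of 10 members. One limma 3.58.1 model of the 3 groups (R 4.3.3, 5 residual degrees of freedom) was fitted, and again with a term for sex (4) and with sex and mutant crossed (3). P values are two-sided, with Benjamini-Hochberg adjustment within each comparison across every gene tested, and 0.05 is the threshold. The labels do not state litters, so p values measure the spread between these mice. The fit was tested on simulated data.

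The members, lists and tests were chosen with earlier results of these data known. Named are all members, list genes called in either fit (at most 4 a direction by p in each comparison), the 3 nearest genes by pattern, Col4a3 and the genes that show sex. Of the 10 members 10 were found at 1 RefSeq gene. Alternatives were other filters, scalings, variance models, sample sets and blocks, and leaving out each array. The sex term with another scaling was added after the data were seen. Replicate numbers are shared by the groups, but nothing says that they mark litters or days. The osteopontin gene is not reported here. Python 3.11.15 and matplotlib 3.10.9 made the plots.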

Additional observations from a re-analysis of the deposited data

Results flagged for a closer look

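Kl differed between the sexes in how the mutants compared, since both female double mutants lay below both female single mutants while the male double mutant lay above the male single mutant. The difference between the sexes was -1.23 (SE 0.25, adjusted p = 0.107 in limma). Slc34a1 showed the same opposite directions, with a difference of -0.63 (SE 0.22, adjusted p = 0.306), and so did Pth1r with -0.94 (SE 0.24, adjusted p = 0.162). None passed the test, and each male value is 1 mouse. The males are single mutant 2, which had the lowest proximal tubule markers of all 8 arrays, and double mutant 3; the part of these markers in the difference was not tested.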

How the results depend on the processing

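The number of genes called was 2 in the single mutant against wild type, 6 in the double mutant against wild type and 0 between the mutants, with 0 members in each. Between the mutants 0 genes passed in limma under all alternatives run, while 104 had an unadjusted p under 0.05. For the single mutant against wild type the count was 7 with no filter, 0 in the fit of only the 2 groups, 0 with the replicate block, 1946 with the term for sex, 1655 in males only, 1980 with replicate block and sex term, and 2010 and 1843 with the sex term after median centring and cyclic loess. Leaving out 1 array gave 0 to 4, and 0 to 2147 with the sex term. For the double mutant against wild type it was 10 with no filter, 16 with the filter at the 50th percentile, 344 with only the 2 groups, 0 with the replicate block, 1728 with the sex term, 727 in males only, 1832 with replicate block and sex term, and 1894 and 1560 with the sex term after median centring and cyclic loess. Leaving out 1 array gave 0 to 590, and 70 to 1635 with the sex term. Members called in the single mutant were 5 with the sex term, 8 with replicate block and sex term, and 7 and 2 with the sex term after median centring and cyclic loess. They were 0 to 8 when 1 array was left out. In the double mutant they were 6, 7, 7 and 4 under the same settings, 2 with only the 2 groups, and 0 to 7 when 1 array was left out. In the fit without single mutant 2 and without a sex term the 3 called were Kl, Pth1r and Slc34a2. The fit of males only holds 1 mouse per mutant, so its counts of calls are not given. Leaving out wild type 1 or 2 leaves 1 wild type mouse, and leaving out a male mutant lets 1 male set the sex term. Leaving out 1 array called 0 to 2 members for sex.

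The direction against wild type changed for Cyp27b1 in the single mutant, which was 0.42 in males, 0.073 with the replicate block, 0.11 with block and sex term, and -0.42 to 0.067, or -1.08 to 0.42 with the sex term, when 1 array was left out. The other 8 tested members kept their direction against wild type under all alternatives run, and Slc34a3 under the looser filters, in which alone it was fitted. Between the mutants the direction changed for Cyp24a1 (1.34 in males, -1.17 to 0.57 with 1 array left out), Vdr (-0.029 in females, -0.092 to 0.29), Kl (0.45 in males), Pth1r (0.56 in males, -0.38 to 0.074), Slc34a1 (-0.16 in females, -0.022 with cyclic loess with or without the sex term, -0.19 to 0.21), Fgfr1 (0.0046 in females, -0.21 to 0.0076) and Slc9a3r1 (-0.18 to 0.025). The cause was not tested. Of the values of single genes, 726 kept their side of the threshold and direction, 119 passed where they had not, and 40 changed direction. Between same-numbered mutants the correlation of deviations was 0.256, -0.339 and -0.577 for numbers 1, 2 and 3. Numbers 2 and 3 each set a female beside one of the 2 males that stood apart. The check therefore cannot show whether the numbers pair the mice, and the replicate block was used only as an alternative.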
